A study of Homo sapiens with 9 samples.

Results

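Transcripts of 10 zinc-dependent histone deacetylases, HDAC1 to HDAC10, were examined in MV4;11 cells. MV4;11 is a line grown from a human acute myeloid leukaemia in which the MLL gene is rearranged. The members were taken by gene symbol from a count table of 26485 symbols. All 10 were present and all 10 passed the filter on low counts. The RNA came from untreated cells grown in RPMI, in 3 libraries each of cells with the K148R substitution in MYC, cells with the K148Q substitution in MYC and parental cells with no substitution listed. MYC is a transcription factor that drives cell growth. Arginine, as in K148R, keeps the charge of lysine but cannot be acetylated, while the uncharged glutamine of K148Q commonly serves as a stand-in for acetyl-lysine. The library titles carry 1 code per mutant genotype, and the sources used here do not state whether each is a single clone or how it was made. The substitution and other differences between the cell lines therefore cannot be told apart. Whether libraries of 1 genotype are from separate cultures is not stated, so each p-value measures only how these libraries vary, which may be technical.

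Histone deacetylases remove acetyl groups from lysines of histones and other proteins. Class I enzymes (HDAC1, HDAC2, HDAC3 and HDAC8) are mostly nuclear. HDAC1 and HDAC2 work inside the SIN3, NuRD and CoREST corepressor complexes, HDAC3 works inside the NCoR complex, and HDAC8 deacetylates the cohesin subunit SMC3. Class IIa proteins (HDAC4, HDAC5, HDAC7 and HDAC9) have weak enzymatic activity of their own, bind MEF2 transcription factors, and leave the nucleus when kinases phosphorylate them and 14-3-3 proteins bind. Class IIb has HDAC6, a cytoplasmic deacetylase of tubulin, and HDAC10, which deacetylates polyamines. Class I and class IIa enzymes are targets of drugs studied in leukaemia, and MYC is itself acetylated and deacetylated.

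Total counts were 13747087 to 18938391 per library. The 10 myeloid markers checked were each above 1 CPM in all 9 libraries, and summed to 3663.1 to 3700.8 CPM in K148R, 2451.4 to 2489.2 CPM in K148Q and 1659.7 to 1664.4 CPM in parental cells. Markers of B and T cells summed to at most 3.93 CPM per list in any library. Fibroblast markers summed to 4.41 to 7.99 CPM in K148R, 0 to 0.062 CPM in K148Q and 0 to 2.95 CPM in parental cells, and epithelial markers to 1.61 to 2.91 CPM in K148R, 0.717 to 1.67 CPM in K148Q and 26.9 to 28.5 CPM in parental cells. MS4A1, CD3E and EPCAM had 0 counts in every library, and the part of these marker differences in the results was not tested. MYC mRNA averaged 378.8 ± 3.38 CPM in K148R, 472.7 ± 29.5 CPM in K148Q and 333.4 ± 4.05 CPM in parental cells, and gene counts do not show the substituted codon. Over genes above a minimum count in each pair of libraries, replicate 3 of K148Q stood apart from its fellows. Its chi-square values against them were 17.8 and 18.3 per degree of freedom, where the other replicate pairs gave 1.35 to 5.22. Results that rest on that library are given with and without it. The fit shares an estimate of the spread over all 9 libraries. Leaving that library out can therefore also move p-values of K148R against parental cells, where it is in neither group. CPM values are counts scaled by TMM-adjusted library size, means are given ± SD over n = 3 libraries, and in bulk RNA fewer expressing cells and less RNA per cell cannot be told apart.

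Because the cells differ in MYC, whose preferred DNA site is the E-box CACGTG, the RefSeq promoter windows of the members (GRCh38.p14, 250 bases before to 50 bases after each start) were searched for that palindrome, which reads the same on both strands. Windows were matched for 9 of the 10 members, HDAC5 being the member without one, and the 9 members had 19 windows. A single window, that of the most upstream HDAC4 start, held the motif, beginning 13 bases before the start. Over all promoter windows, 7.26% held it, and 8.77% of all genes with windows had it in at least 1, beside 1 of 9 members. That HDAC4 window (chr2:239401600-239401899, minus strand) is shown first with the E-box in capitals. The HDAC2 window (chr6:113971099-113971398, minus strand), of the member with the largest fall among those above 1 CPM in every library, is shown under it and has no match.
HDAC4: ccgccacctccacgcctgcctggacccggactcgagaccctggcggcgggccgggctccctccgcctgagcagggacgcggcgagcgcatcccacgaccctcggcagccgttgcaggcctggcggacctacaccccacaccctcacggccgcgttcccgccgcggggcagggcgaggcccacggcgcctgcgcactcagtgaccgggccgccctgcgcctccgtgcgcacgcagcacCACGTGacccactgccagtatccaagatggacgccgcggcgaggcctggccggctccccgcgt
HDAC2: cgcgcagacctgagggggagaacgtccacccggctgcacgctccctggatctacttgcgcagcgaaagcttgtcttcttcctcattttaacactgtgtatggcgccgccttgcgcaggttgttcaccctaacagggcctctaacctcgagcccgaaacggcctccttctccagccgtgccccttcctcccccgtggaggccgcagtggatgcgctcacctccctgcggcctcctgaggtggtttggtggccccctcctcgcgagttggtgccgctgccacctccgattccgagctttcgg

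In K148R against parental cells, 7 of the 10 members passed the test, which was edgeR's quasi-likelihood test with Benjamini-Hochberg adjustment over 12845 genes at adjusted p under 0.05. HDAC3 and HDAC5 were higher, and HDAC1, HDAC2, HDAC4, HDAC8 and HDAC9 were lower. In this comparison 75.1% of all tested genes passed, 37.8% higher and 37.3% lower, so 7 of 10 lies near the background. In K148Q against parental cells 4 members passed, with HDAC4 and HDAC6 higher and HDAC1 and HDAC2 lower, against a background of 53.3%, 27.0% higher and 26.3% lower. In K148R against K148Q cells 8 members passed, with HDAC3 and HDAC5 higher and HDAC2, HDAC4, HDAC6, HDAC8, HDAC9 and HDAC10 lower, against a background of 71.0%, 36.6% higher and 34.5% lower. HDAC9 passed the filter on low counts only through the K148Q and parental libraries, where it was higher, so its call rests on 1 to 12 counts per K148R library, and without it 6 of 9 and 7 of 9 members passed in the comparisons that include K148R cells. Both comparisons against parental cells use the same parental libraries, so their values are given side by side. Setting K148R against K148Q cells tests the difference between the mutants directly. The groups did not overlap for 8 members in K148R against parental cells (80.6% of all tested genes), for 5 in K148Q against parental cells (59.5%) and for 7 in K148R against K148Q cells (71.4%).

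The members moved by small amounts. The median absolute log2 fold change of the 10 was 0.27 in K148R against parental cells, beside 0.58 over all tested genes. It was 0.20 beside 0.30 in K148Q against parental cells, and 0.33 beside 0.51 in K148R against K148Q cells. HDAC9, the scarcest member, was the 1 member whose fitted value differed at least 2-fold, in both comparisons that include K148R cells, where 29.4% (against parental) and 26.3% (against K148Q) of all tested genes did. In K148Q against parental cells no member differed by 1.5-fold or more, whereas 25.4% of all tested genes did.

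**Figure D1:**
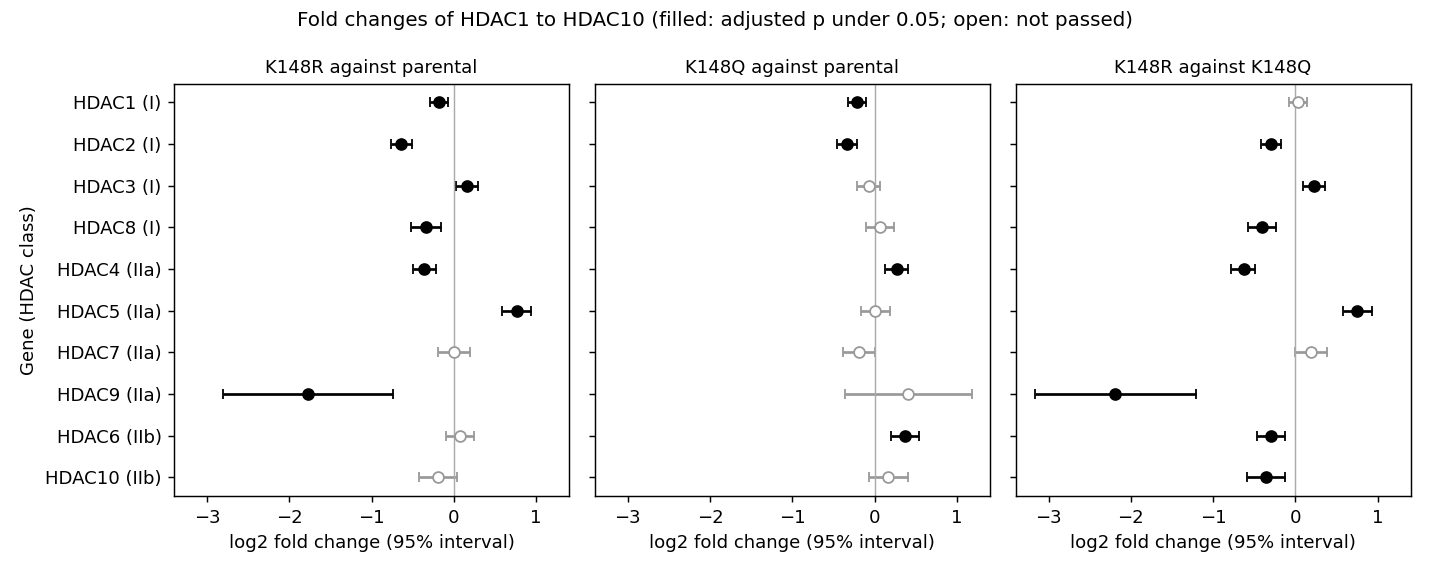
Log2 fold changes of the 10 HDAC genes (x axis) with 95% intervals, for K148R against parental, K148Q against parental and K148R against K148Q cells; filled points passed at adjusted p under 0.05. HDAC5 at 0.77 and HDAC9 at -1.78 lie farthest from 0 in K148R against parental cells. HDAC9 has few counts and passed the filter on low counts only through the K148Q and parental libraries. HDAC4 lies on opposite sides of 0 in the 2 mutants.

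HDAC1 and HDAC2 are close paralogs that can stand in for each other in the same complexes. HDAC1 (chromosome 1, 32292086 to 32333635, plus strand) was at 268.4, 279.3 and 268.1 CPM in K148R, 271.5, 277.5 and 250.3 CPM in K148Q, and 311.1, 302.7 and 311.5 CPM in parental cells. All 6 mutant libraries lay below all 3 parental ones, and the mutants overlapped each other. Its log2 fold change was -0.18 (SE 0.051, adjusted p = 0.0051) in K148R against parental cells and -0.21 (SE 0.052, adjusted p = 0.0032) in K148Q against parental cells. Between K148R and K148Q cells it was 0.03 with a 95% interval of -0.08 to 0.14 (adjusted p = 0.62), and its sign turned without K148Q replicate 3, to -0.03. RefSeq lists the pseudogenes HDAC1P1 and HDAC1P2, and reads shared with such copies cannot be assigned with certainty.

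HDAC2 (chromosome 6, 113933028 to 114011308, minus strand) had the lowest level in K148R, an intermediate one in K148Q and the highest in parental cells. It was at 164.5, 170.2 and 172.8 CPM in K148R, 203.4, 194.1 and 226.3 CPM in K148Q, and 259.0, 265.2 and 264.2 CPM in parental cells. No genotype overlapped another, and the high K148Q value was that of replicate 3. The log2 fold change of HDAC2 was -0.64 (SE 0.059, adjusted p = 1.5e-07) in K148R against parental cells, a level 0.644 times the parental one. In K148Q against parental cells it was -0.34 (SE 0.059, adjusted p = 0.00024). The direct comparison of K148R with K148Q cells gave -0.30 (SE 0.059, adjusted p = 0.00037). Without K148Q replicate 3 the last value was -0.25 (adjusted p = 2.2e-06).

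The count ratio of HDAC2 to HDAC1 within a library needs no scaling between libraries. It was 0.613, 0.609 and 0.645 in K148R, 0.749, 0.700 and 0.904 in K148Q, and 0.833, 0.876 and 0.848 in parental cells. K148R libraries were the lowest, while K148Q libraries spanned the parental range because replicate 3 lay above it. Since the genes differ in length, the ratio compares libraries and not the levels of the genes.

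HDAC3 (chromosome 5, 141620876 to 141636870, minus strand), the catalytic subunit of the NCoR complex, was at 142.8, 146.1 and 130.7 CPM in K148R, 118.6, 127.3 and 112.2 CPM in K148Q, and 123.2, 125.7 and 127.0 CPM in parental cells. The K148R libraries were the highest, with replicate 3 only just above the others' range. Its log2 fold change was 0.16 (SE 0.063, adjusted p = 0.033) in K148R against parental cells, and this call ended in 7 of 18 alternative fits. Among them were the fits without any one parental library (adjusted p 0.073 to 0.12), without K148R replicate 1 (0.097) and without K148R replicate 2 (0.14). In K148R against K148Q cells it was 0.23 (SE 0.063, adjusted p = 0.0046), which held in all 18. In K148Q against parental cells it was -0.07, with a 95% interval of -0.21 to 0.07 (adjusted p = 0.37).

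HDAC8 (chromosome X, 72329516 to 72573199, minus strand) was lower in K148R cells. It was at 17.0, 16.7 and 16.5 CPM in K148R, 21.9, 22.8 and 21.7 CPM in K148Q, and 21.8, 21.0 and 20.7 CPM in parental cells. K148R libraries lay below all the others, and K148Q and parental libraries overlapped. Its log2 fold change was -0.34 (SE 0.082, adjusted p = 0.0017) in K148R against parental cells and -0.40 (SE 0.082, adjusted p = 0.0005) in K148R against K148Q cells. Between K148Q and parental cells it was 0.06, with an interval of -0.11 to 0.24 (adjusted p = 0.54).

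**Figure D2:**
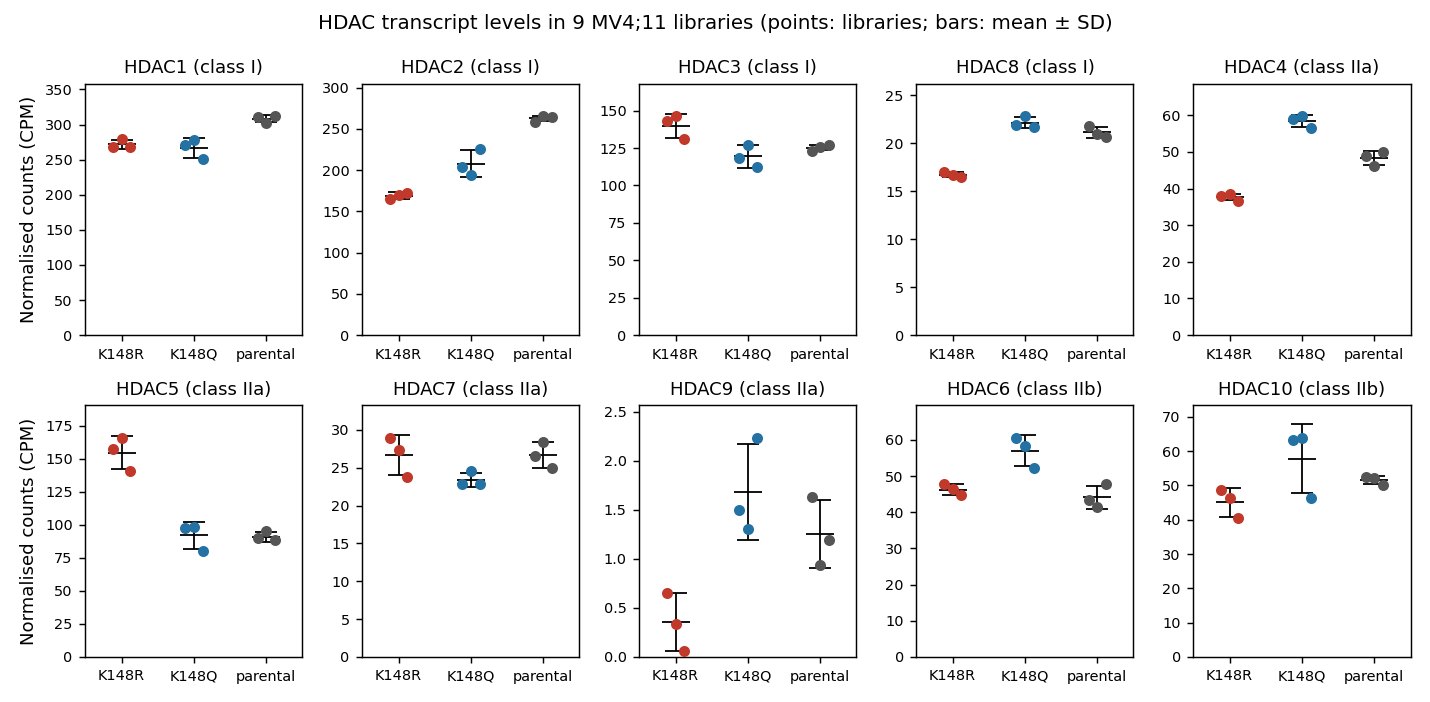
Normalised counts (CPM, y axis from 0) of each HDAC gene in the 3 libraries of K148R, K148Q and parental cells (points) with mean ± SD (bars). HDAC5 stood at 141.2 to 165.7 CPM in K148R libraries, above all others, and HDAC10 in K148Q replicate 3 (46.4 CPM) lay well below its fellows (63.4 and 63.8 CPM).

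Among class IIa members, HDAC5 (chromosome 17, 44076746 to 44123702, minus strand) had the largest rise of all members examined in K148R cells. It was at 157.5, 165.7 and 141.2 CPM in K148R, 97.8, 98.1 and 80.2 CPM in K148Q, and 89.8, 95.3 and 88.2 CPM in parental cells. Every K148R library was above every other library, while K148Q and parental libraries overlapped. The log2 fold change of HDAC5 in K148R against parental cells was 0.77 (SE 0.082, adjusted p = 7.3e-07), a level 1.70 times the parental one (95% interval 1.51 to 1.92). Of all tested genes, 19.7% rose by at least as much in that comparison. In K148R against K148Q cells it was 0.75 (SE 0.082, adjusted p = 1.1e-06). Between K148Q and parental cells it was 0.01, with an interval of -0.16 to 0.19 (adjusted p = 0.90).

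HDAC4 (chromosome 2, 239048168 to 239401654, minus strand) moved in opposite directions in the mutants. Its levels were 37.9, 38.5 and 36.7 CPM in K148R, 59.1, 59.7 and 56.5 CPM in K148Q, and 49.0, 46.2 and 49.9 CPM in parental cells. The genotypes did not overlap, with parental cells in the middle. Against parental cells its log2 fold change was -0.36 (SE 0.067, adjusted p = 0.00021) in K148R and 0.27 (SE 0.066, adjusted p = 0.0031) in K148Q cells. The direct test of K148R against K148Q cells gave -0.63 (SE 0.067, adjusted p = 7.7e-07). This is the member with the E-box window shown above, and whether that E-box bears on its levels was not tested.

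Within a library, the count ratio of HDAC5 to HDAC4 was 4.15, 4.30 and 3.85 in K148R, 1.65, 1.64 and 1.42 in K148Q, and 1.83, 2.06 and 1.77 in parental cells. All 3 K148R libraries had the highest ratios and all 3 K148Q libraries the lowest. This pair of ratios was chosen after the values were seen and was not tested.

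HDAC7 (chromosome 12, 47782722 to 47833132, minus strand) passed in none of the 3 comparisons. It was at 28.9, 27.4 and 23.8 CPM in K148R, 22.8, 24.5 and 22.9 CPM in K148Q, and 26.6, 28.4 and 25.0 CPM in parental cells. K148Q libraries lay just below the parental ones, and K148R libraries overlapped both. The log2 fold change of HDAC7 in K148R against parental cells was 0.00, with an interval of -0.19 to 0.20 (adjusted p = 0.98). Values were -0.19 (interval -0.39 to 0.01, adjusted p = 0.10) in K148Q against parental cells and 0.19 (interval -0.01 to 0.39, adjusted p = 0.079) in K148R against K148Q cells. Upper-quartile scaling brought the last 2 past the threshold (adjusted p 0.047 and 0.038), and so did leaving out K148R replicate 3 for the last (0.022).

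HDAC9 (chromosome 7, 18086949 to 19002416, plus strand) was close to the detection limit. The filter on low counts kept it only through the K148Q and parental libraries, where it was higher. Its p-values in the comparisons that include K148R cells are therefore given as description only. Its raw counts were 12, 5 and 1 in K148R, 23, 19 and 36 in K148Q, and 27, 13 and 20 in parental libraries. As CPM these were 0.653, 0.339 and 0.0619 in K148R, 1.5, 1.3 and 2.23 in K148Q, and 1.63, 0.940 and 1.19 in parental cells. K148R libraries were the lowest, and they differed widely among themselves. The summed counts, 18 in K148R, 78 in K148Q and 60 in parental cells, gave depth-corrected ratios of 0.287 (exact 95% interval 0.160 to 0.493, counting error only) for K148R against parental cells and 1.33 (0.939 to 1.90) for K148Q against parental cells. By edgeR the log2 fold change was -1.78 (SE 0.484, adjusted p = 0.0039) in K148R against parental cells. Without K148R replicate 1 it was -2.65 (adjusted p = 0.0011) and without replicate 3 it was -1.30 (adjusted p = 0.015). In K148R against K148Q cells it was -2.19 (SE 0.46, adjusted p = 0.00061), and in K148Q against parental cells 0.41 (interval -0.36 to 1.18, adjusted p = 0.36). The last value was 0.15 without K148Q replicate 3, 0.26 without parental replicate 2 and 0.65 without parental replicate 1 (adjusted p 0.24 to 0.75).

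HDAC6 (chromosome X, 48801377 to 48824982, plus strand), of class IIb, was higher in K148Q cells. It was at 47.7, 46.4 and 44.7 CPM in K148R, 60.5, 58.4 and 52.2 CPM in K148Q, and 43.5, 41.4 and 47.7 CPM in parental cells. K148Q libraries were above all others, whereas K148R and parental libraries overlapped. The log2 fold change of HDAC6 was 0.37 (SE 0.079, adjusted p = 0.0013) in K148Q against parental cells and 0.44 (adjusted p = 6e-07) without K148Q replicate 3. In K148R against K148Q cells it was -0.30 (SE 0.078, adjusted p = 0.0031). In K148R against parental cells it was 0.07, with an interval of -0.10 to 0.24 (adjusted p = 0.47).

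HDAC10 (chromosome 22, 50245183 to 50251405, minus strand) depended on K148Q replicate 3. It was at 48.6, 46.4 and 40.4 CPM in K148R, 63.4, 63.8 and 46.4 CPM in K148Q, and 52.5, 52.2 and 50.2 CPM in parental cells. Replicates 1 and 2 of K148Q were the highest libraries, and replicate 3 lay below the parental ones. K148R libraries also lay below the parental ones. In K148Q against parental cells the log2 fold change was 0.16 (SE 0.109, adjusted p = 0.22) with all libraries and 0.31 (adjusted p = 0.00011) without replicate 3. In K148R against K148Q cells it was -0.36 (SE 0.11, adjusted p = 0.0095) with all libraries, -0.51 (adjusted p = 2e-08) without K148Q replicate 3 and -0.28 (adjusted p = 0.051) without K148R replicate 3. In K148R against parental cells it was -0.19 (SE 0.11, adjusted p = 0.13). That value passed without K148Q replicate 3, a library of neither group (-0.20, edgeR adjusted p = 0.004). It also passed with only the compared groups fitted (edgeR adjusted p = 0.0061) and with a replicate block (edgeR adjusted p = 0.036).

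In GENCODE, HDAC10 shares 55.8% of its annotated exon bases with MAPK12, the kinase gene next to it on the same strand. How such reads were counted is not stated in the sources. MAPK12 averaged 32.3 ± 3.65 CPM in K148R, 55.6 ± 5.74 CPM in K148Q and 50.4 ± 1.96 CPM in parental cells. Its log2 fold change was -0.64 in K148R against parental cells (edgeR adjusted p = 2.5e-05). The part of shared reads in the HDAC10 values was not tested. Exons of HDAC3 and HDAC7 share 9.2% and 9.7% of their bases with an antisense RNA gene that is not listed in the count table. The sources used here do not state the strand of counting. Exons of HDAC8 share 5.2% of their bases with a protein-coding gene on the same strand, also not listed in the count table. The part of such reads in the HDAC8 values was not tested.

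K148Q replicate 3 deviated from replicates 1 and 2 along the GC content of the HDAC transcripts. HDAC10, with the highest GC content (66.9%), was 0.46 lower on the log2 scale in replicate 3, and HDAC5 (61.2%) was 0.29 lower. HDAC2, with the lowest (38.2%), was 0.19 higher, and the scarce HDAC9 (40.2%) was 0.64 higher. Members did not all follow the order: HDAC8 (40.8%) was at -0.04, HDAC1 (47.5%) at -0.13 and HDAC7 (57.7%) at -0.05. Spearman's rho between GC content and this deviation was -0.82 over the 10 members, which share the same libraries. It was -0.77 without HDAC9, and -0.72 over 12140 tested genes with a GC value. These are descriptions across genes, which are not independent replicates. Replicate 3 of K148R was also the lowest of its genotype for HDAC10 (40.4 CPM) and HDAC5 (141.2 CPM) and the highest for HDAC2 (172.8 CPM). It was the lowest too for HDAC8 (16.5 CPM) and HDAC9 (0.0619 CPM), whose GC content is low. Deviations of the K148Q and K148R replicates 3 from their group means correlated at 0.269. GC content was not set against the K148R deviations.

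**Figure D3:**
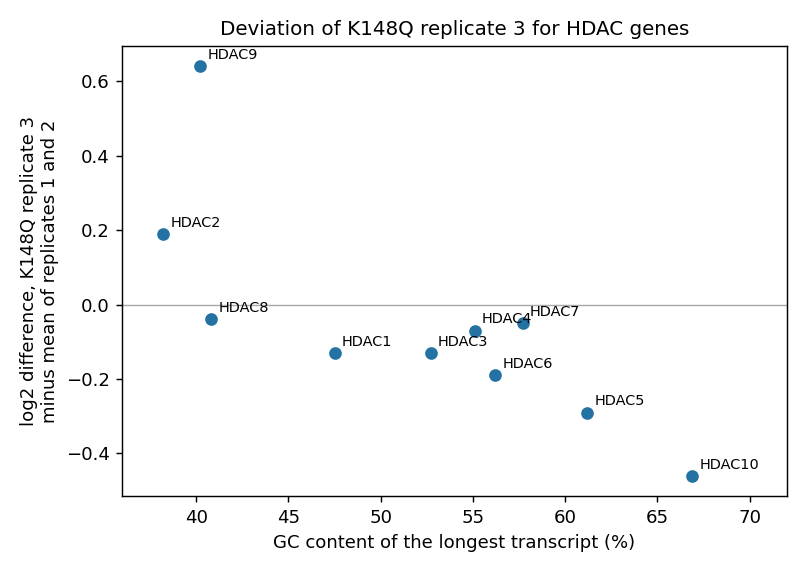
Log2 difference of K148Q replicate 3 from the mean of K148Q replicates 1 and 2 (y axis) against the GC content of each HDAC gene's longest transcript (x axis, %), 1 point per gene. The values run from 0.19 for HDAC2 at 38.2% GC to -0.46 for HDAC10 at 66.9% GC, with HDAC9, which has few counts, at 0.64.

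To compare levels between members, CPM were divided by the length of all annotated exons in kilobases. In parental cells HDAC1 was the highest at 77.8 ± 1.26 CPM per kilobase, followed by HDAC3 (27.1 ± 0.408), HDAC2 (17.0 ± 0.216), HDAC5 (12 ± 0.486), HDAC10 (10.4 ± 0.255), HDAC6 (4.17 ± 0.301), HDAC4 (3.62 ± 0.142), HDAC7 (2.69 ± 0.172), HDAC8 (0.921 ± 0.025) and HDAC9 (0.0745 ± 0.0207). In K148Q cells the order was the same, but HDAC2 (13.4 ± 1.07), HDAC5 (12.1 ± 1.35) and HDAC10 (11.7 ± 2.01 CPM per kilobase) lay within their spread of one another. In K148R cells HDAC5 (20.3 ± 1.64) ranked 3 of 10, above HDAC2 (10.9 ± 0.275 CPM per kilobase). HDAC4 (2.82 ± 0.07) and HDAC7 (2.69 ± 0.264 CPM per kilobase) lay within their spread in K148R cells. The order depends on the choice of length, most for HDAC8, whose annotated exons span 22986 bases but whose longest consensus coding (CCDS) transcript has 2373. By that transcript's length HDAC8 ranked 7 of 10 in each genotype, whereas HDAC1 and HDAC3 stayed at the top and HDAC9 last. CCDS lengths also put HDAC7 (6.51 ± 0.416) above HDAC4 (5.39 ± 0.212) and HDAC10 (19.2 ± 0.469) above HDAC5 (17.1 ± 0.695 CPM per kilobase) in parental cells. With CCDS lengths HDAC10 came before HDAC2 in K148Q cells (21.5 ± 3.71 and 21.1 ± 1.68 CPM per kilobase), and HDAC5 again ranked 3 of 10 in K148R cells.

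**Figure D4:**
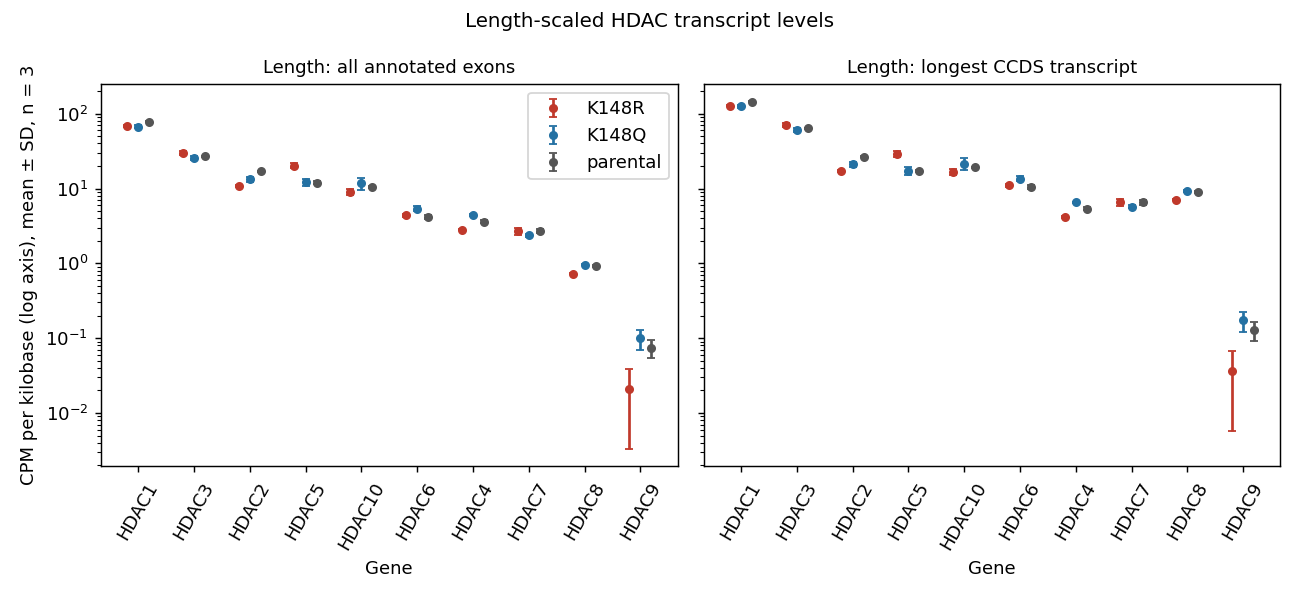
Length-scaled levels of the HDAC genes (CPM per kilobase, log y axis; mean ± SD, n = 3) by all annotated exons (left) and by the longest CCDS transcript (right), in K148R, K148Q and parental cells. HDAC1 is highest and HDAC9 lowest in both panels; HDAC5 in K148R cells (20.3 CPM per kilobase, left) lies above its K148Q and parental values.

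As a share of the length-scaled sum of the 10 members, class I genes made up 73.8% ± 1.04 in K148R, 75.0% ± 1.43 in K148Q and 78.9% ± 0.369 in parental cells. Class IIa genes made up 17.2% ± 0.673 in K148R, 13.2% ± 0.341 in K148Q and 11.8% ± 0.382 in parental cells, and HDAC5 alone 13.5% ± 0.594 in K148R, 8.40% ± 0.507 in K148Q and 7.68% ± 0.351 in parental cells. Class IIb genes made up 9% ± 0.459 in K148R, 11.9% ± 1.08 in K148Q and 9.37% ± 0.0607 in parental cells. With CCDS lengths class IIa was again highest in K148R cells, at 13.7% ± 0.547, beside 10.5% ± 0.214 in K148Q and 9.60% ± 0.345 in parental cells. These shares are descriptions and were not tested.

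The search for genes like a member covered 10117 genes with a mean of at least 5 CPM, leaving out symbols that start with HDAC. Looked up were the genes whose pair of log2 fold changes against parental cells lay nearest to those of a member. For HDAC5 they were MOB3A, TMEM80 and ARFGAP3, at Euclidean distances of 0.025, 0.027 and 0.029 over the 2 fold changes. MOB3A, for example, was at 526.5 CPM in K148R, 310.7 CPM in K148Q and 312.3 CPM in parental cells. For HDAC9 they were PSRC1, SUSD3 and CCNF, at distances of 0.012, 0.034 and 0.071, with PSRC1 at 3.86 CPM in K148R, 17.4 CPM in K148Q and 13.1 CPM in parental cells. The HDAC9 fold changes carry SEs of 0.484 (K148R) and 0.361 (K148Q), far above these distances, so which genes lie nearest to it is not resolved. The HDAC5 fold changes, with SEs of 0.082 (K148R) and 0.083 (K148Q), also exceed their distances in error. Which genes lie nearest to HDAC5 is therefore not resolved either.

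Partner genes of HDAC1 and HDAC2 moved in both directions. Of 15 SIN3 complex genes, 4 were higher and 7 lower in K148R against parental cells, and 1 was higher and 4 lower in K148Q against parental cells, where 8 passed without K148Q replicate 3. Over all tested genes 75.1% passed in K148R and 53.3% in K148Q against parental cells. So 11 of 15 in K148R lies near that background and 5 of 15 in K148Q below it. Those shares are from the fit with all libraries, and the count without K148Q replicate 3 has no matching share here. Their median log2 fold changes were -0.14 and 0.00, beside medians of 0.00 and -0.01 over all tested genes. Of 12 tested NuRD genes, 2 were higher and 4 lower in K148R against parental cells (median -0.08), and 2 were higher and 5 lower in K148Q against parental cells (median -0.03). CHD5 did not pass the filter on low counts. Of 10 CoREST genes, 3 were higher and 5 lower in K148R against parental cells (median -0.27), and 2 were higher and 4 lower in K148Q against parental cells (median 0.04). The same 75.1% and 53.3% of all tested genes stand beside the NuRD and CoREST counts.

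RBBP7, a histone-binding subunit that both SIN3 and NuRD contain, was at 96.7 ± 4.46 CPM in K148R, 206.1 ± 5.75 CPM in K148Q and 243.0 ± 3.26 CPM in parental cells. ING2, a reader of methylated histone H3 in SIN3, was at 6.2 ± 1.55 CPM in K148R, 18.3 ± 1.47 CPM in K148Q and 16.8 ± 0.694 CPM in parental cells, and its K148Q value did not pass against parental cells (edgeR adjusted p = 0.43). ARID4B fell to 46.6 ± 6.10 CPM in K148Q, against 68.8 ± 1.86 CPM in parental cells, and was at 74.7 ± 2.99 CPM in K148R cells (edgeR adjusted p = 0.21 against parental). SAP130 rose to 52.4 ± 2.16 CPM in K148Q, against 38.6 ± 0.862 CPM in parental cells.

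MTA3, a NuRD subunit, fell in both mutants, to 2.52 ± 0.463 CPM in K148R and 3.50 ± 0.0766 CPM in K148Q, against 9.41 ± 0.894 CPM in parental cells. MBD3, which distinguishes one form of NuRD, rose to 214.9 ± 26.2 CPM in K148Q, against 159.8 ± 3.45 CPM in parental cells. CHD4, the NuRD remodelling ATPase, passed in none of the 3 comparisons. It was at 507.2 ± 14.8 CPM in K148R, 535.0 ± 29.6 CPM in K148Q and 536.9 ± 13.9 CPM in parental cells. Without K148Q replicate 3, a library of neither group, it passed in K148R against parental cells (-0.09, edgeR adjusted p = 0.012). The log2 fold change with all libraries was -0.08.

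In CoREST, the scaffold RCOR1 rose to 125.8 ± 1.92 CPM in K148R and 96.2 ± 7.43 CPM in K148Q, against 72.8 ± 2.26 CPM in parental cells. The histone demethylase KDM1A fell to 103.4 ± 3.80 CPM in K148R and 141.5 ± 5.44 CPM in K148Q, against 169.9 ± 1.21 CPM in parental cells. RCOR2 fell as well, to 7.63 ± 0.333 CPM in K148R and 7.45 ± 1.41 CPM in K148Q, against 12.1 ± 0.929 CPM in parental cells. ZMYM2 fell in K148Q cells, to 68.0 ± 10.4 CPM against 97.4 ± 2.49 CPM in parental cells, and was at 85.6 ± 7.75 CPM in K148R cells (edgeR adjusted p = 0.084 against parental, and 0.0011 without K148Q replicate 3).

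Among the corepressor genes that surround HDAC3, TBL1XR1, which encodes a WD-repeat subunit, was at 45.5, 45.5 and 52.4 CPM in K148R, 71.0, 71.1 and 129.3 CPM in K148Q, and 136.0, 141.4 and 140.6 CPM in parental cells. Replicate 3 of K148Q stood apart, close to the parental libraries. The log2 fold change of TBL1XR1 in K148Q against parental cells was -0.62 (edgeR adjusted p = 0.022), -0.96 (7e-17) without replicate 3, and -0.47 without replicate 1 (0.09) or replicate 2 (0.079). In K148R against parental cells it was -1.54 (edgeR adjusted p = 4.9e-05). GPS2, a small subunit of the same complex, rose to 55.3 ± 1.00 CPM in K148R and 60.7 ± 4.6 CPM in K148Q, against 41.2 ± 1.14 CPM in parental cells. NCOR1 rose to 269.9 ± 6.81 CPM in K148Q, against 222.6 ± 9.54 CPM in parental cells, and was at 220.1 ± 2.72 CPM in K148R cells (edgeR adjusted p = 0.78 against parental).

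**Figure D5:**
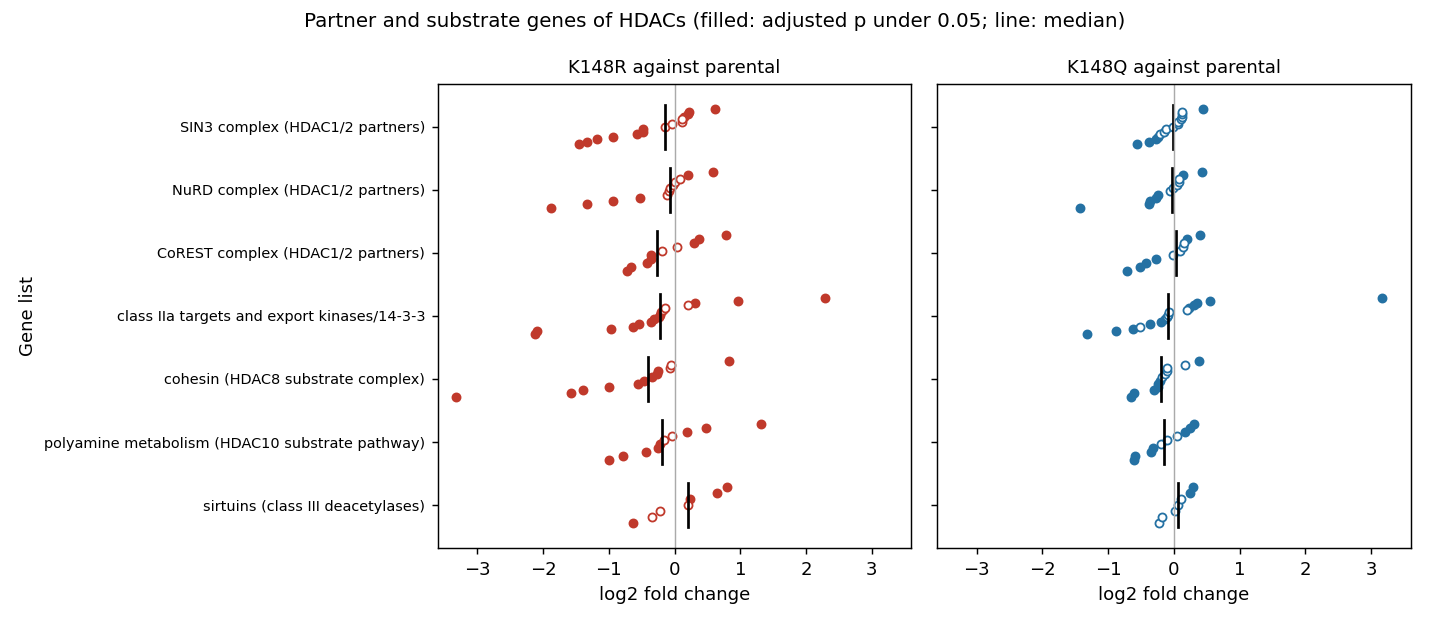
Log2 fold changes (x axis) of genes on 7 lists of HDAC partners, substrate pathways and the sirtuins, for K148R against parental (left) and K148Q against parental cells (right); filled points passed at adjusted p under 0.05 and the black line is the list median. The lowest point on the left is ESCO2 at -3.32, and the highest on the right is CAMK1 at 3.16.

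Of 16 tested genes for MEF2 factors, the kinases that drive class IIa export and 14-3-3 proteins, 3 were higher and 10 lower in K148R against parental cells (median -0.23), and 5 were higher and 6 lower in K148Q against parental cells (median -0.09), where 75.1% (K148R) and 53.3% (K148Q) of all tested genes passed. MEF2C, a MEF2 factor that MLL-rearranged leukaemias often express highly, fell to 37.2 ± 4.19 CPM in K148R and 64.5 ± 7.29 CPM in K148Q, against 161.2 ± 1.98 CPM in parental cells. CAMK1, a calcium-activated kinase, rose to 8.41 ± 1.34 CPM in K148R and 15.4 ± 2.08 CPM in K148Q, against 1.72 ± 0.141 CPM in parental cells. PRKD2 passed in none of the 3 comparisons, with 49.8 ± 2.20 CPM in K148R, 53.7 ± 5.42 CPM in K148Q and 56.2 ± 3.34 CPM in parental cells, but did in K148R against parental cells without K148Q replicate 3 (-0.18, edgeR adjusted p = 0.0048) or parental replicate 2 (0.045). MEF2B, PRKD1 and CAMK4 did not pass the filter on low counts.

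Of 12 cohesin genes, the substrate complex of HDAC8, 9 were lower and 1 higher in K148R against parental cells (median -0.40), and 6 were lower and 1 higher in K148Q against parental cells (median -0.19), where 11 passed without K148Q replicate 3. Of all tested genes 75.1% passed in K148R, 37.3% as lower, and 53.3% passed in K148Q, 26.3% as lower. Those shares are from the fit with all libraries, so the count of 11 has no matching share here. SMC3, whose acetyl groups HDAC8 removes, fell to 93.5 ± 8.63 CPM in K148R and 225.9 ± 19.4 CPM in K148Q, against 277.1 ± 6.81 CPM in parental cells. ESCO2, an acetyltransferase of SMC3 used during DNA replication, fell to 9.04 ± 1.27 CPM in K148R, against 90.3 ± 3.23 CPM in parental cells, and was at 83.8 ± 19.7 CPM in K148Q cells (edgeR adjusted p = 0.53 against parental, and 8.4e-05 without K148Q replicate 3). ESCO1, the other SMC3 acetyltransferase, fell to 23.2 ± 6.63 CPM in K148Q, against 35.2 ± 0.603 CPM in parental cells, and was at 33.7 ± 3.00 CPM in K148R cells (edgeR adjusted p = 0.71 against parental). STAG2 fell to 214.7 ± 13.3 CPM in K148R and 164.8 ± 34.7 CPM in K148Q, against 259.0 ± 1.61 CPM in parental cells, but its K148R call (edgeR adjusted p = 0.047) ended without any one parental library, K148R replicate 1 or K148R replicate 2 (0.074 to 0.14). NIPBL, the cohesin loader, passed in none of the 3 comparisons, with 113.7 ± 6.87 CPM in K148R, 107.2 ± 14.4 CPM in K148Q and 118.2 ± 5.87 CPM in parental cells. Without K148Q replicate 3, NIPBL passed in K148Q against parental cells (-0.25, edgeR adjusted p = 0.00022).

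Of 10 polyamine genes, the pathway whose acetylated products HDAC10 deacetylates, 3 were higher and 5 lower in K148R against parental cells (median -0.19). K148Q against parental cells had 3 higher and 4 lower (median -0.15), and 4 passed in all without K148Q replicate 1. Of all tested genes 75.1% passed in K148R and 53.3% in K148Q, in the fit with all libraries. The count without K148Q replicate 1 has no matching share here. SAT1, which acetylates polyamines, rose to 27.7 ± 1.09 CPM in K148R, against 11.1 ± 1.09 CPM in parental cells, and was at 10.3 ± 0.376 CPM in K148Q cells (edgeR adjusted p = 0.41 against parental). SMOX, spermine oxidase, fell to 16.4 ± 1.38 CPM in K148R and 21.5 ± 0.800 CPM in K148Q, against 32.6 ± 0.445 CPM in parental cells. PAOX, which oxidises acetylated polyamines, fell to 3.31 ± 0.681 CPM in K148Q, against 4.98 ± 0.187 CPM in parental cells, and was at 4.45 ± 0.642 CPM in K148R cells (edgeR adjusted p = 0.41 against parental). The K148Q call of PAOX ended without K148Q replicate 1 (edgeR adjusted p = 0.071). AZIN1 passed in none of the 3 comparisons, with 384.7 ± 47.7 CPM in K148R, 346.3 ± 54.1 CPM in K148Q and 394.7 ± 6.95 CPM in parental cells, but did in K148Q against parental cells without K148Q replicate 3 (-0.32, edgeR adjusted p = 0.011).

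The 7 sirtuins, NAD-dependent deacetylases of class III, had 3 higher and 1 lower in K148R against parental cells (median 0.20), and 2 higher and 0 lower in K148Q against parental cells (median 0.06). Beside the 75.1% and 53.3% of all tested genes that passed, 4 of 7 and 2 of 7 are smaller shares. SIRT2, a mostly cytoplasmic enzyme that deacetylates tubulin as HDAC6 does, rose to 155.1 ± 10.4 CPM in K148R and 109.0 ± 13.1 CPM in K148Q, against 88.9 ± 2.98 CPM in parental cells. SIRT6 rose to 69.5 ± 5.08 CPM in K148R, against 44.6 ± 1.09 CPM in parental cells, and was at 48.2 ± 7.62 CPM in K148Q cells (edgeR adjusted p = 0.38 against parental, and 0.0016 without K148Q replicate 3). SIRT7 rose to 40.9 ± 5.08 CPM in K148Q, against 34.4 ± 2.11 CPM in parental cells (edgeR adjusted p = 0.048), and was at 39.4 ± 3.83 CPM in K148R cells (adjusted p = 0.087 against parental). The K148Q call of SIRT7 ended without any one parental library, K148Q replicate 1 or 2, or K148R replicate 1 or 2 (edgeR adjusted p 0.054 to 0.21), and its K148R value passed without K148Q replicate 3 (0.014) or K148R replicate 3 (0.035).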

How the data were processed

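The 9 RNA-seq libraries comprised 3 each of K148R, K148Q and parental MV4;11 cells, grouped by the genotype in the labels. Per the labels' protocols, total RNA (Zymo Quick-RNA Miniprep) was made into standard Illumina libraries. The authors deposited raw read counts per gene symbol, not normalised. HISAT2 2.0.5, featureCounts 1.5.2, FastQC 0.11.7 and the build GRCh38 are listed in the submitters' processing notes, and counting options, strand and annotation are not stated there or in the labels.

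Genes were filtered with filterByExpr by group (12845 kept), scaled with TMM and tested with edgeR 4.0.16 in R 4.3.3 (robust quasi-likelihood F test, 1 term per genotype, all 9 libraries, Benjamini-Hochberg adjustment, threshold 0.05). SE and 95% intervals came from the fold change and F. Positions, exon lengths and GC content came from GENCODE 29 (GRCh38). The test was checked on simulated data in which few genes changed and the dispersion was fixed. That check does not cover data where most genes pass or a library stands apart.

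The 10 members and the partner lists were chosen with earlier results of these data known. From each list the text names the 2 genes with the largest change that passed in each mutant, and the most abundant one that did not pass in K148R. A gene of the HDAC3 partner list is not reported here, nor are that list's counts. No replicate term was used. Leaving out single libraries for the named partner genes was added after seeing the data. Alternatives were DESeq2 1.42.0, limma-voom (limma 3.58.1), other scalings, other filters, fits of only the compared groups, a replicate block and leaving out each library.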

Additional observations from a re-analysis of the deposited data

How the results depend on the processing

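Of 19 member comparisons that passed the test, 17 kept their direction and their side of the threshold in all 18 alternatives. HDAC3 in K148R against parental cells and HDAC10 in K148R against K148Q cells were the others. The 17 include both HDAC9 comparisons with K148R cells, whose calls rest on 1 to 12 counts per K148R library. In the main fit HDAC9 passed the filter on low counts only through the K148Q and parental libraries. Signs turned only for values near 0 that did not pass. HDAC7 in K148R against parental cells (0.00) was -0.004 with upper-quartile scaling, -0.043 with total library sizes, -0.021 without the filter, -0.005 with only the compared groups and -0.059 to 0.08 without single libraries. HDAC5 in K148Q against parental cells (0.01) was -0.029 with upper-quartile scaling and -0.033 to 0.116 without single libraries. HDAC1 in K148R against K148Q cells (0.03) was -0.031 with total library sizes, -0.001 with only the compared groups and -0.032 to 0.054 without single libraries. The cause was not tested. All counts of members and of genes that passed stayed within 1.5 times. Members called numbered 6 to 8 in K148R against parental, 4 or 5 in K148Q against parental and 8 or 9 in K148R against K148Q cells. The shares of all tested genes given above (75.1%, 53.3% and 71.0%) belong to the main fit. Those of the alternatives are not given, so these counts are not set against a background.

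With the replicate number as a block, 8 members passed in K148R against parental, 4 in K148Q against parental and 8 in K148R against K148Q cells. The share of all tested genes that passed with the block is not given here. Deviations of same-numbered K148R and K148Q libraries correlated at 0.14 for replicates 1, 0.012 for replicates 2 and 0.269 for replicates 3, and those of either with parental libraries at -0.024 to 0.037. Those of differently numbered K148R and K148Q libraries correlated at -0.239 to 0.173. Since not every same-numbered pair exceeded 0.1 and the labels name no shared batch, the numbers were not taken as pairs. Among members only HDAC10 in K148R against parental cells (-0.198) changed sides. Depth limited HDAC9, with 1 to 36 counts per library.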
